A study of Oncorhynchus mykiss with 70 samples.

Results

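The subject is the activin type I receptor gene acvr1a, which the rainbow trout panel measured as 4 copies: acvr1aa1, acvr1aa2, acvr1ab1 and acvr1ab2. They are the 4 genes of that name among the 49 activin pathway genes of a custom NanoString code set, a direct, amplification-free assay in which each captured RNA molecule carries a fluorescent barcode that is counted. RNA came from 70 samples of 23 tissues of adult rainbow trout aged 2 to 3 years, from the clonal Swanson and Oregon State University lines, and the fish were untreated. The labels do not say which line a sample came from. Apart from the fish that gave ovaries the donors were males, and RNA extraction was not the same for every tissue. Of the tissues, 7 are titled muscle (22 samples) and 16 are not (48 samples); 1 tissue had 2 samples, 20 had 3 and 2 had 4. The design text calls the replicates biological, and p-values measure the spread between these samples. Those of skeletal muscle against other tissues measure the spread between tissues instead.

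The acvr1a receptor, also known as ALK2, is a serine/threonine kinase of the cell membrane. A type II receptor that has bound a ligand phosphorylates it, and it then phosphorylates Smads of the bone morphogenetic protein branch, which are not on this panel. Activins can also bind human ACVR1 without signalling through it, and overactive human ACVR1 causes bone to form in muscle and other soft tissue. In zebrafish, the related gene acvr1l is required for patterning of the early embryo. Salmonids carry extra copies of many genes from a genome duplication of their own on top of the older one shared by teleosts.

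Per the authors' gene list, acvr1aa1 (LOC110501518, chromosome 22) and acvr1aa2 (LOC110520052, chromosome 3) derive from the same ancestral chromosome, 3a, and share 1 pike homolog. The genes acvr1ab1 (LOC110495748, chromosome 18) and acvr1ab2 (LOC110528876, chromosome 7) derive from ancestral chromosome 13b and share another. All 4 identifiers matched RefSeq genes of the assembly USDA_OmykA_1.1, where acvr1ab1 bears the symbol acvr1l. In that annotation acvr1aa1 has acvr1ca1, and acvr1aa2 has acvr1ca2, as its next protein-coding neighbour; the acvr1c genes encode the ALK7 type I receptor. Beyond this order of genes along the chromosome, the genome coordinates of the copies were not analysed here.

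The probes decide which copy is read, so their targets are shown as deposited by the authors, 5′ to 3′. Each target is 100 bases long, with a GC content of 63% for acvr1aa1, 46% for acvr1aa2, 51% for acvr1ab1 and 55% for acvr1ab2. The acvr1aa1 and acvr1ab2 targets are printed whole, and the acvr1aa2 target by its first 30 bases. The acvr1ab1 target is printed up to a TGA triplet in capitals, the stop codon of one reading frame.
acvr1aa1: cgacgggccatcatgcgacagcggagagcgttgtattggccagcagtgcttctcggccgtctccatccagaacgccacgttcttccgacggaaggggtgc
acvr1aa2: aggatttgccgtagcctagctctgctacat
acvr1ab1: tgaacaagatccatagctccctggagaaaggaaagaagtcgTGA
acvr1ab2: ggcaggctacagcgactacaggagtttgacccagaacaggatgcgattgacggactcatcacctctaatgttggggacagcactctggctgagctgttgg
The longest run of bases shared between targets of the 4 copies was 7, and between any of them and the target of another panel gene 9. The targets of the copies were thus unlike each other. They were not placed on the transcripts, so whether a probe also reads the message of another copy was not tested. How far a constant ratio between the counts of 2 copies reflects the probes was not tested either. Tests are made only of a copy between tissues and of a ratio between tissues. Where counts of different copies stand side by side, they describe probe counts and not the amounts of the messages.

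Total counts ran from 52194 to 269554 per sample, of which the 49 pathway genes took 511 to 46159. The limit of detection of a sample is the mean plus 2 SD of its 8 negative controls, between 6.64 and 29.3 counts, and between 7 and 48 pathway genes per sample exceeded it. In 8 samples the number was 24 or lower. Levels are given as scaled counts, the count divided by a factor for the sample. The factor is the geometric mean of the reference genes actb, ef1a and tbp in the sample, set to 1 for the average over samples. It had a median of 0.349 in muscle samples and 1.72 in other samples, so scaling raised the counts of muscle, and its background with them. The panel holds no cell type markers. mstna1, a myostatin gene of muscle, averaged 185 to 1663 in the 7 muscles, all above its highest other tissue (148, Brain). The other myostatin genes overlapped. The lowest muscle mean was 10.95 for mstnb1 and 14.7 for mstnb2, against 24.5 and 19.5 in the highest other tissue. The inhibin alpha gene inhab1 had its highest tissue means in Ovaries (2170) and Testes (1156), against at most 185 elsewhere. Both mstna1 and inhab1 were chosen with earlier results of these data known, so they are no independent check of the titles. In bulk RNA, fewer cells of a type and less RNA per cell cannot be told apart.

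The copies differed in how strongly their probes were read. acvr1ab2 gave 25 to 3278 counts with a median of 213, exceeded the limit in 70 of 70 samples, and had the highest count of the 4 copies in 68. acvr1ab1 gave 8 to 812 counts (median 74.5) and exceeded the limit in 68 samples. acvr1aa2 gave 9 to 434 counts (median 58), exceeded the limit in 65 samples, and was the highest copy in the other 2 samples, both from Retina. acvr1aa1 gave 1 to 69 counts (median 11), exceeded the limit in 17 samples, and had the lowest count of the 4 copies in all 70. Only Brain and Ovaries had acvr1aa1 above the limit in all samples, and 11 tissues had it in none. Its level outside those tissues is therefore not distinguishable from background in most samples.

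**Figure D1:**
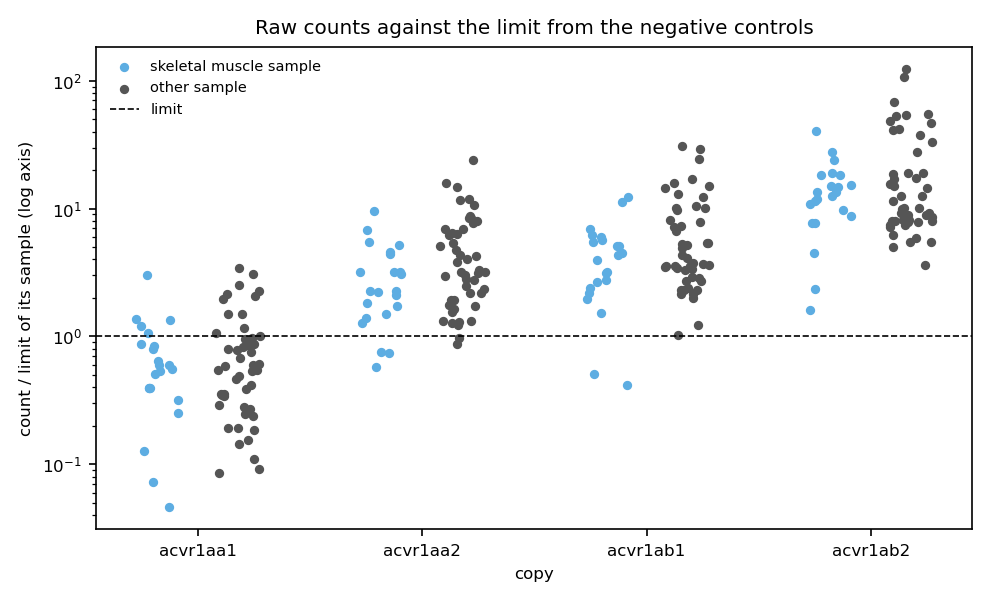
Count of each acvr1a copy divided by the limit of its sample (log axis), 1 point per sample, skeletal muscle samples left and other samples right of each copy's position; the dashed line marks a count equal to the limit. acvr1ab2 lies above the line in 70 of 70 samples and acvr1aa1 in 17.

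The scaled count of each of the 4 copies depended on the tissue (edgeR, quasi-likelihood F-test over 23 tissues, threshold of adjusted p 0.05), as it did for 100% of the 49 pathway genes. F was 22.8 for acvr1ab2 (adjusted p = 2.21e-18), 13.9 for acvr1ab1 (5.05e-14), 9.22 for acvr1aa1 (6.82e-11) and 6.98 for acvr1aa2 (6.32e-09). The highest tissue mean was 19.1 times the lowest for acvr1ab2, 10.2 times for acvr1ab1 and 12.7 times for acvr1aa2. No such ratio is given for acvr1aa1, whose lowest tissues are not above background. Among all pairs of tissues, edgeR's test called 66.8% for acvr1ab2, 56.9% for acvr1ab1, 47.4% for acvr1aa1 and 42.7% for acvr1aa2, against 39.3% over all pathway genes. Neighbours in the order of tissues did not pass that test for any copy. Counting down from the highest tissue, the first to differ from it stood at place 5 for acvr1ab2 (Pyloric Caeca, below Caudal Skeletal Muscle), 9 for acvr1ab1 and acvr1aa1, and 13 for acvr1aa2. The test results for acvr1aa1 rest mostly on counts not above the limit, and scaled background differs between tissues with the factor.

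**Figure D2:**
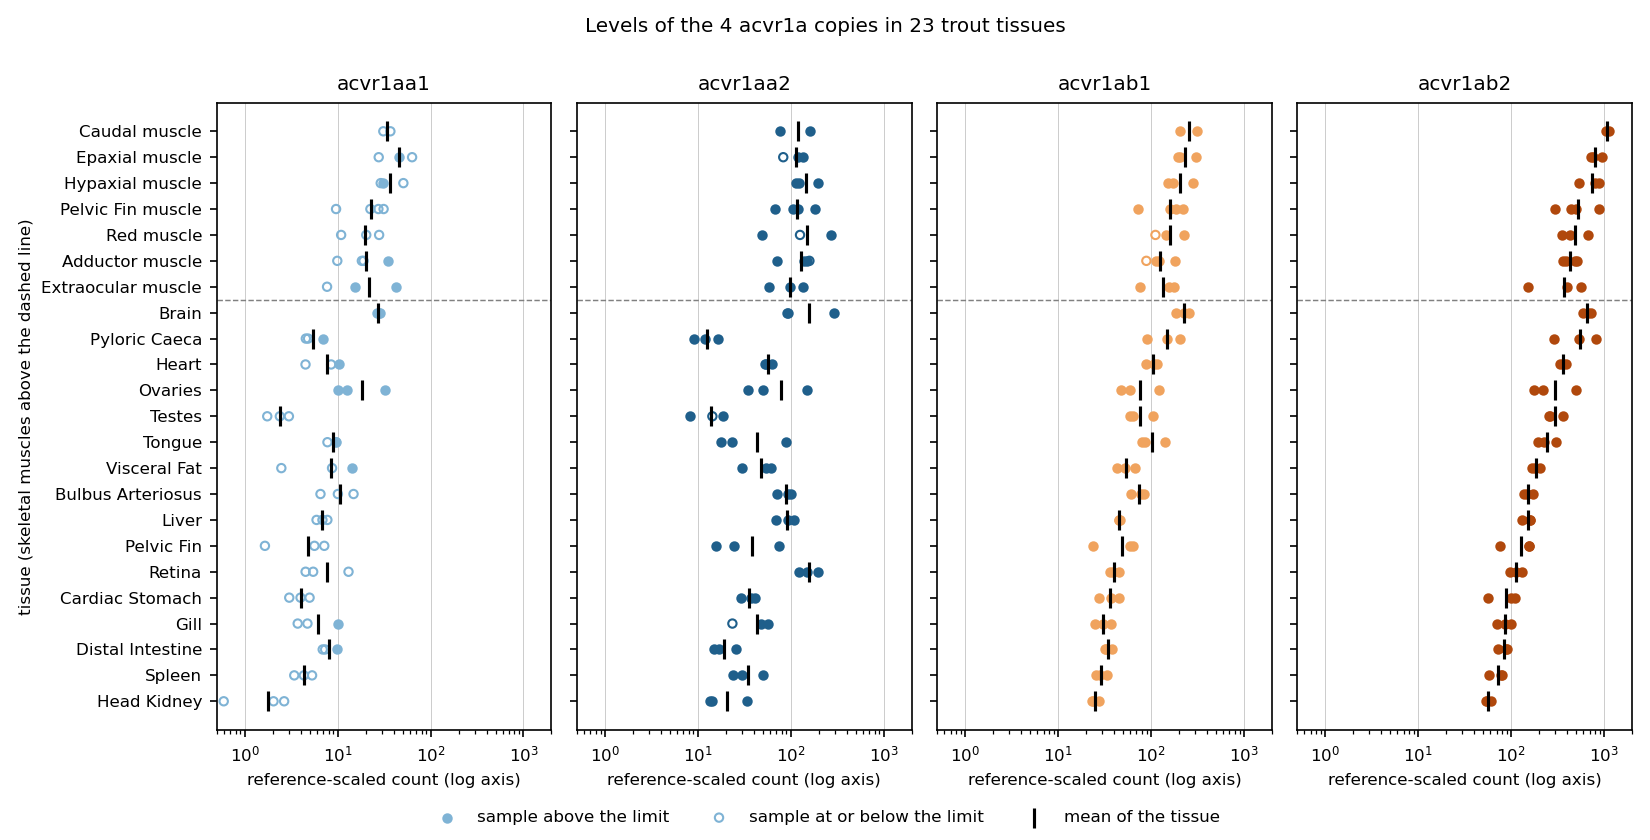
Scaled count (log axis) of each acvr1a copy in every sample, by tissue; filled points exceed the limit of their sample, open points do not, and bars mark tissue means. The 7 skeletal muscles stand above the dashed line and the other tissues below it, both ordered by acvr1ab2; acvr1aa2 leaves that order in Retina (mean 157) and Pyloric Caeca (12.5).

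The acvr1ab copies had closely similar tissue profiles. Over the 23 tissue means of log2(scaled count + 10), acvr1ab1 and acvr1ab2 correlated with r = 0.98, and their positions in the order of tissues differed by at most 2. When counts were scaled by the pathway genes instead, r was 0.927. The acvr1aa copies followed each other less closely, with r = 0.766, or 0.158 with pathway scaling. Across the pairs, r was 0.516 between acvr1aa2 and acvr1ab2, and −0.456 with pathway scaling. These are descriptions over 23 tissues that share their scaling, and over low counts for acvr1aa1. Whether the probe of 1 copy also reads another was not tested. The widest gap between copies was in Pyloric Caeca, at place 5 of 23 tissues for acvr1ab2 and place 23 for acvr1aa2.

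The balance between the acvr1aa and acvr1ab pairs changed between tissues, and this comparison needs no scaling because it is a ratio within each sample. The acvr1aa copies took 2.25% to 60.9% of the counts of all 4, with a median of 18.8%, and were fewer than the acvr1ab counts in 69 of 70 samples. To test it, edgeR fitted a copy by tissue term, for this ratio together with the duplicate pairs of the panel. The ratio of acvr1aa to acvr1ab varied with F = 10.8 (adjusted p = 4.31e-12), second in F of 22 ratios, of which 81.8% passed the test. In 6 tissues the ratio differed from the mean of the other 22, against 13.6% of all ratio and tissue pairs. It was higher in Retina, Liver, Bulbus Arteriosus and Gill, and lower in Testes and Pyloric Caeca.

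**Figure D3:**
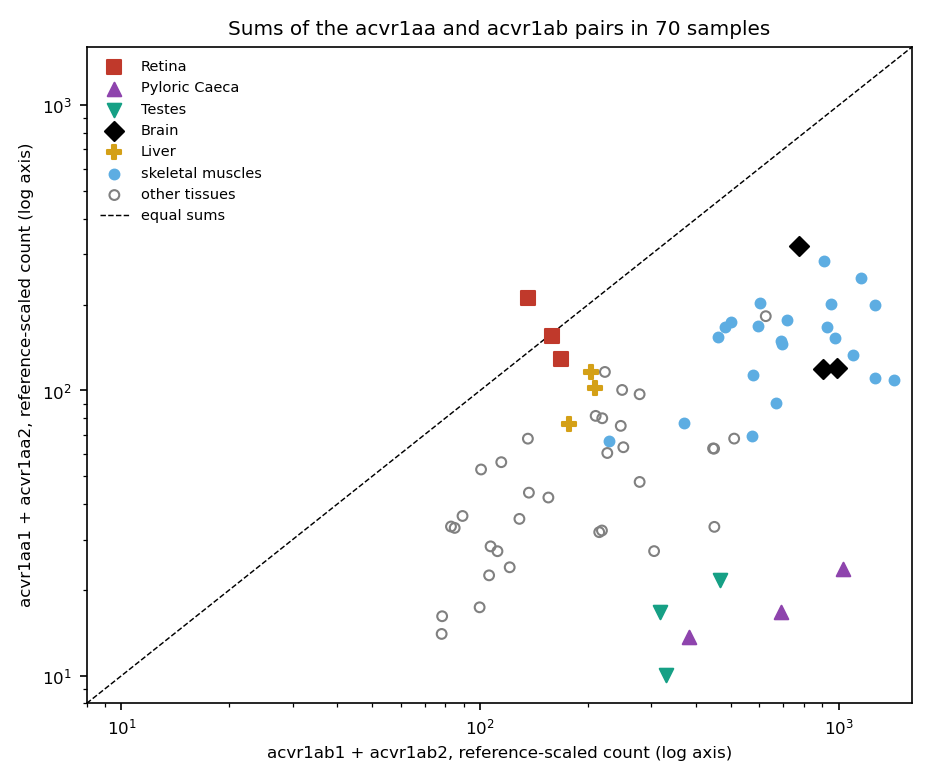
Sum of the scaled counts of acvr1aa1 and acvr1aa2 against that of acvr1ab1 and acvr1ab2 (log axes), 1 point per sample. Retina lies on or near the dashed line of equal sums, with tissue means of 165 and 154; Testes and Pyloric Caeca lie farthest below it, with acvr1aa sums of 16.2 and 18.

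Retina had the highest share of acvr1aa. acvr1aa2 gave 158, 333 and 232 counts there, while acvr1ab2 gave 168, 163 and 175 and acvr1ab1 47, 65 and 70. acvr1aa1 added 7, 22 and 7 counts, none above the limit. The acvr1aa copies held 51.2% ± 8.88 (SD, n = 3) of the counts of the 4 copies, with 43.4%, 60.9% and 49.4% in single samples. The exact binomial 95% interval of the lowest of these ran from 38.4% to 48.6% and that of the highest from 56.8% to 64.9%; such intervals cover counting error only. Every Retina sample lay above the highest share of any other tissue, 36.4% in a Liver sample. The ratio of acvr1aa to acvr1ab was 5.35-fold that of the other tissues (log2 difference 2.42 ± 0.33, SE, adjusted p = 8.66e-08).

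The fits of a copy's level set a tissue against the mean of the other 22. That mean is of log2 levels, whereas scaled counts printed for the other tissues are plain averages. The printed averages therefore do not give the tested fold. In these fits, called means an adjusted p under 0.05 and at least a 2-fold difference, that is 1 on the log2 scale. A call of higher further requires that the raw counts of that tissue average 20 or more, a condition that a call of lower does not have. In all other tests, those of ratios among them, called means an adjusted p under 0.05 with no minimum difference. Both sides of the ratio differed in Retina. acvr1aa2 was higher than in the other tissues, at 157 ± 38.1 (SD, n = 3) scaled counts against a mean of 75.3 (log2 difference 1.43 ± 0.35, SE, edgeR adjusted p = 0.000786). Its difference kept its direction and its call under all 6 other scalings, between 1.47 and 2.05. acvr1ab1 and acvr1ab2 were lower, with log2 differences of −1.08 and −1.18 (adjusted p = 0.00424 and 0.000786). Both missed the threshold with scaling by the positive controls, at −0.48 and −0.58, and within the 4 tissues of the set of samples that holds Retina in the authors' table they were 0.02 and 0.21 (adjusted p = 0.989 and 0.726). Set against Brain, the other tissue of the nervous system, Retina had 0.172-fold the acvr1ab2 level (114 against 662, adjusted p = 5.46e-07) and 0.18-fold the acvr1ab1 level (40.2 against 225). Its acvr1aa2 level was 0.992-fold that of Brain, with a log2 difference of −0.01 ± 0.56 (SE, adjusted p = 0.990). That value rests on Brain 2: without it acvr1aa2 in Retina was 1.71-fold that in Brain (adjusted p = 0.336). Retina and Brain belong to different sets of samples, so tissue and set cannot be told apart in this pair.

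In Brain all 4 copies were called higher than in the other tissues, as were 15 of the 49 pathway genes. acvr1ab2 gave 950, 873 and 1277 counts and averaged 662 ± 69.5 scaled counts (SD, n = 3), against a mean of 333 over the other tissues. acvr1ab1 gave 322, 275 and 458 counts, and acvr1aa1 40, 41 and 47, above the limits of 18.2 to 20.3. The log2 differences were 1.51 for acvr1ab1, 1.48 for acvr1ab2 and 1.46 for acvr1aa1, with edgeR adjusted p from 1.56e-07 to 0.000343. acvr1aa2 gave 128, 434 and 164 counts; Brain 2 stood far above the other 2 samples. Its log2 difference of 1.44 (adjusted p = 0.000705) was 0.65 without Brain 2 (adjusted p = 0.225), so the Brain level of acvr1aa2 rests on that sample. With tbp alone as the scale, none of the 4 Brain differences passed the test, at 0.43 to 0.61, and with DESeq2 size factors acvr1aa1 and acvr1aa2 did not.

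Pyloric Caeca, the blind sacs behind the stomach, showed the opposite balance. acvr1ab2 gave 3278, 2147 and 706 counts, including the highest count of any copy in the study, and acvr1ab1 gave 812, 582 and 218. acvr1aa2 gave 66, 47 and 22 counts and acvr1aa1 28, 19 and 11, in the same samples. The acvr1aa copies held 2.69% ± 0.66 (SD, n = 3) of the counts of the 4, the lowest share of the 23 tissues, and their ratio to acvr1ab was 0.115-fold that of the other tissues (log2 difference −3.12 ± 0.34, SE, adjusted p = 8.08e-10). On the scaled counts acvr1ab2 reached 554 ± 266 against a mean of 338 over the other tissues (log2 difference 1.21 ± 0.22, SE, adjusted p = 1.47e-05). Without replicate 1 that difference was 0.80 (adjusted p = 0.0149). For acvr1ab1 it was 0.87 (adjusted p = 0.00418), short of a 2-fold difference. acvr1aa2 averaged 12.5 ± 3.78 against 81.9 (log2 difference −2.37 ± 0.51, SE, adjusted p = 0.000169). The panel as a whole was low in this tissue, with a median log2 difference of −1.38 over 49 genes and 28 of them called lower.

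The rest of the gut did not share the high acvr1ab level. In the authors' table, Distal Intestine and Cardiac Stomach belong to another set of samples than Pyloric Caeca. Tissue and set cannot be told apart in these comparisons of levels. acvr1ab2 in Pyloric Caeca was 6.58-fold that in Distal Intestine (554 against 84.1 scaled counts, edgeR adjusted p = 1.96e-07) and 6.22-fold that in Cardiac Stomach (against 88.9, adjusted p = 3.05e-07). acvr1ab1 was 4.28-fold and 4.01-fold higher in the same comparisons (adjusted p = 4.32e-05 and 8.54e-05). acvr1aa2 in Pyloric Caeca was 0.653-fold that in Distal Intestine, a difference that missed the threshold (adjusted p = 0.414), and 0.354-fold that in Cardiac Stomach (adjusted p = 0.0346). The second was lost without Cardiac Stomach 1 or 3 or Pyloric Caeca 2 or 3 (adjusted p up to 0.110). The acvr1aa share of the 4 copies was 18.6% ± 2.68 in Distal Intestine and 24.5% ± 3.30 in Cardiac Stomach (SD, n = 3 each).

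The gonads differed in acvr1aa2 and not detectably in acvr1ab. acvr1aa2 gave 237, 191 and 310 counts in Ovaries, against 24, 19 and 50 in Testes. acvr1aa1 gave 48, 69 and 67 counts in Ovaries, against 4, 4 and 8 in Testes, where none exceeded the limit. On scaled counts acvr1aa2 was 5.62-fold higher in Ovaries (78.4 ± 62.3 against 13.8 ± 5.22, SD, n = 3 each, edgeR adjusted p = 0.000755). Without Ovaries 3 the acvr1aa2 difference was 3.07-fold (adjusted p = 0.0256). No fold is given for acvr1aa1, since its level in Testes is not above background. For acvr1ab2 the log2 difference of Ovaries minus Testes was 0.03 ± 0.35 (SE, adjusted p = 0.959) and for acvr1ab1 −0.01 ± 0.38 (adjusted p = 0.985). Without Ovaries 3 the acvr1ab2 difference was −0.57 (adjusted p = 0.225). Ovaries 3 had scaled counts above those of the other Ovaries samples for all 4 copies (acvr1ab2 504, against 179 and 219). Testes had an acvr1aa share of 4.15% ± 1.06 (SD, n = 3), and a ratio of acvr1aa to acvr1ab 0.187-fold that of the other tissues (log2 difference −2.42 ± 0.35, SE, adjusted p = 2.84e-07).

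Liver, Bulbus Arteriosus and Gill leaned towards acvr1aa. In Liver, acvr1aa2 gave 73, 59 and 175 counts and averaged 91.3 ± 19.8 scaled counts beside 151 ± 16.3 of acvr1ab2 (SD, n = 3 each). The acvr1aa copies held 33.1% ± 3.18 of the 4 (log2 ratio difference 1.28 ± 0.33, SE, adjusted p = 0.00366). Bulbus Arteriosus, the elastic outflow chamber of the fish heart, had a share of 30.3% ± 3.44 (log2 ratio difference 1.08, adjusted p = 0.0169), and Gill one of 29.1% ± 8.23 (1.03, adjusted p = 0.0270). The call in Bulbus Arteriosus was lost without its replicate 2 or 3 (adjusted p up to 0.127) and that in Gill without its replicate 2 or 3 (up to 0.199). Of 6 other settings of the fit, the call was kept in 3 for Bulbus Arteriosus and in 5 for Gill. Heart had a share of 12.1% ± 0.32, and 2.39-fold the acvr1ab2 level of Bulbus Arteriosus (364 ± 27.4 against 152 ± 16.6 scaled counts, SD, n = 3 each, adjusted p = 0.00411). The raw acvr1ab2 counts overlapped, at 127, 395 and 87 in Heart and 177, 78 and 102 in Bulbus Arteriosus. In the authors' deposited table, where the 2 tissues belong to sets on different scales, the values were 267 and 273. The acvr1aa2 level of Heart was 0.634-fold that of Bulbus Arteriosus, which missed the threshold (adjusted p = 0.390).

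**Figure D4:**
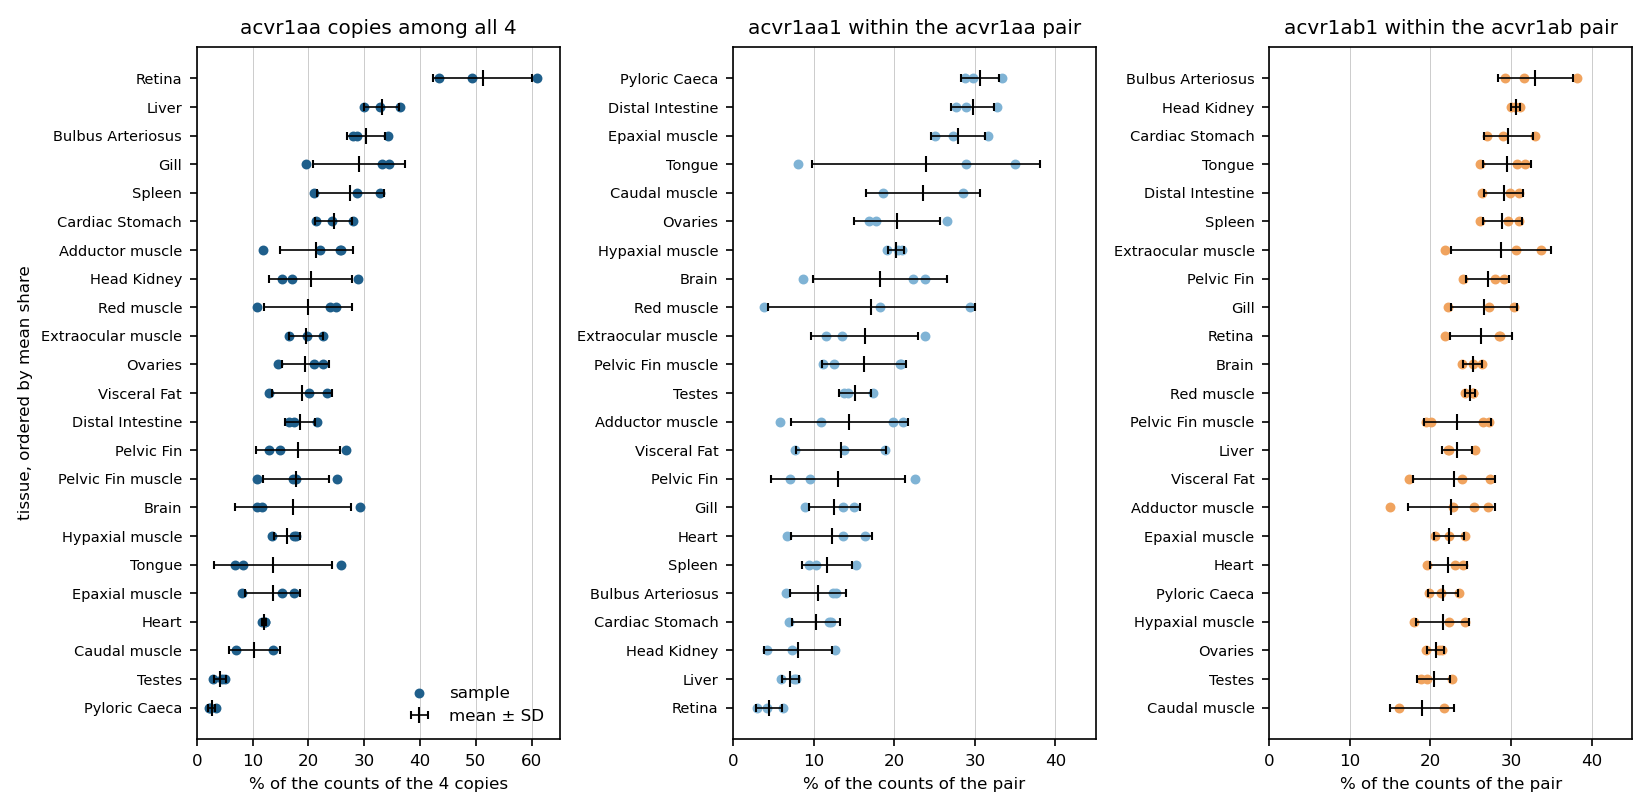
Share of counts taken by the acvr1aa copies among all 4 (left), by acvr1aa1 within the acvr1aa pair (middle) and by acvr1ab1 within the acvr1ab pair (right), in percent, by tissue; points are samples and bars the mean ± SD. The acvr1aa share spans 2.69% to 51.2% as a tissue mean, and the acvr1ab1 share 18.9% to 33.0%.

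Within the acvr1aa pair, acvr1aa1 took 2.93% to 34.9% of the counts (median 14%) and had the lower count of the pair in 70 of 70 samples. Its share changed among tissues (F = 4.07, adjusted p = 2.51e-05, rank 11 of 22 ratios). The share was highest in Pyloric Caeca, at 30.6% ± 2.39, and Distal Intestine, at 29.7% ± 2.65, and lowest in Retina, at 4.46% ± 1.64, and Liver, at 7.11% ± 1.04 (SD, n = 3 each). The log2 ratio of acvr1aa1 to acvr1aa2 differed from that of the other tissues by 1.35 in Pyloric Caeca (adjusted p = 0.00831), 1.29 in Distal Intestine (0.0105), 1.19 in Epaxial Skeletal Muscle (0.0414), −1.31 in Liver (0.0242) and −2.01 in Retina (6.45e-05). After the mean of the negative controls was subtracted, none of the 5 differences passed the test, although the share still varied among tissues (adjusted p = 0.00827). The subtracted shares were 24.3% in Pyloric Caeca and 23.9% in Distal Intestine, against 1.40% in Retina and 1.13% in Liver. The lowest were then 0% in Caudal Skeletal Muscle, 0.538% in Cardiac Stomach and 0.847% in Testes. Retina and Liver stayed low but were no longer the lowest tissues. In the intestine acvr1aa1 exceeded the limit in 1 sample of each tissue, and in Retina and Liver in none. The Liver call was lost without any 1 of its 3 samples (adjusted p up to 0.178), the Epaxial call without any 1 of its samples or Caudal Skeletal Muscle 1 (up to 0.177), and the Distal Intestine call without its replicate 3 (0.0715).

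Within the acvr1ab pair the share was steadier. acvr1ab1 took 15% to 38.2% of the counts (median 25.3%) and had the lower count of the pair in 70 of 70 samples. The share changed among tissues by the same test (F = 2.80, adjusted p = 0.00161, rank 14 of 22 ratios), and no longer did after background subtraction (adjusted p = 0.285). Only Bulbus Arteriosus differed from the other tissues, with 73, 36 and 63 counts of acvr1ab1 beside 177, 78 and 102 of acvr1ab2. Its share was 33.0% ± 4.65 (SD, n = 3; log2 ratio difference 0.58, adjusted p = 0.0189), and without replicate 3 the difference was 0.41 (adjusted p = 0.237). At the other end, the share was 20.7% ± 1.06 in Ovaries, 20.4% ± 2.02 in Testes and 18.9% ± 3.98 in Caudal Skeletal Muscle (n = 2), none of which passed the test.

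In the immune tissues both acvr1ab copies were low on the scaled counts. This was not particular to them, as both copies were also called lower in Distal Intestine, Gill, Cardiac Stomach and Retina. There the log2 differences of acvr1ab2 were −1.63, −1.61, −1.55 and −1.18, and 25, 20, 8 and 7 of the 49 pathway genes were called lower. Head Kidney, the site of blood cell formation in trout, was last of 23 tissues for acvr1ab2 (56.9 ± 4.02) and acvr1ab1 (25.1 ± 2.40; SD, n = 3 each), and Spleen was next to last for both acvr1ab copies. acvr1ab1, acvr1ab2 and acvr1aa2 were called lower in Head Kidney, as were 26 of the 49 pathway genes, and both acvr1ab copies in Spleen, with 16 genes. The acvr1aa1 counts in Head Kidney, 11, 10 and 2, were below the limit. The raw counts of acvr1ab2 in Head Kidney were 254, 268 and 182, within the range of other tissues, and its log2 difference of −2.22 was −0.49 with pathway scaling and −0.26 with the positive controls. acvr1aa2, acvr1ab1 and acvr1ab2 did not pass the test between Spleen and Head Kidney (edgeR adjusted p from 0.284 to 0.688). Over all tissues, 18 of 92 copy and tissue pairs were called higher and 21 lower than the other tissues, against 16.3% and 16.7% of the pairs of all pathway genes. Without the minimum mean count, 24 pairs were higher, against 20.3% of all pairs. The 6 pairs held back lie in muscle: acvr1aa1 in Epaxial (log2 difference 2.21), Hypaxial (1.89), Caudal (1.78), Pelvic Fin (1.16) and Adductor Skeletal Muscle (1.13), and acvr1aa2 in Red Skeletal Muscle (1.29), with mean counts of 6 to 19.3. With them, all 4 copies were higher in Hypaxial Skeletal Muscle too. But acvr1aa1 exceeded the limit in 1 of 3 Epaxial, 1 of 3 Hypaxial and 1 of 4 Adductor samples. It did so in none of the Caudal and Pelvic Fin Skeletal Muscle samples. These higher differences of acvr1aa1 thus rest mostly on counts not distinguishable from background. The 5 lower calls of acvr1aa1, in Pelvic Fin, Spleen, Cardiac Stomach, Testes and Head Kidney, lie in tissues where none of its counts exceeded the limit, so they set background against other levels.

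Skeletal muscle had higher scaled counts of all 4 copies than the other tissues, as had 55.1% of the pathway genes, while 0% were lower. With the tissue as the unit (7 muscles, 16 others), acvr1ab2 averaged 637 ± 255 in muscle against 221 ± 178 elsewhere (SD; log2 difference 1.45 ± 0.40, SE, edgeR adjusted p = 0.00375). acvr1ab1 averaged 183 ± 49.9 against 72.1 ± 52.9 (1.24 ± 0.38, adjusted p = 0.00776), and acvr1aa2 125 ± 18.3 against 58.8 ± 45.7 (0.99 ± 0.42, adjusted p = 0.0480). acvr1aa1 averaged 28.7 ± 10.1 against 8.33 ± 6.41 (1.77 ± 0.38, adjusted p = 0.000345), but its raw counts had a median of 8.5 in muscle against 11 elsewhere. It exceeded the limit in 5 of 22 muscle samples against 12 of 48 others, and after background subtraction its difference was 1.15 (adjusted p = 0.195). The raw medians of the other copies were lower in muscle too. They were 200.5 against 253.5 for acvr1ab2, 51.5 against 95 for acvr1ab1 and 34.5 against 63.5 for acvr1aa2.

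These muscle differences depended on the scale. The median over the 49 genes was 1.10 with the 3 reference genes, −0.36 with the pathway genes and −0.87 with the positive controls. Relative to that median, acvr1ab2 differed by 0.35, 0.15 and 0.00 under the 3 scalings, acvr1ab1 by 0.14, 0.00 and −0.06, acvr1aa2 by −0.11, −0.06 and −0.12, and acvr1aa1 by 0.67, 0.68 and 0.52. Under pathway scaling no copy passed the test, and 4 of the 49 genes were higher and 10 lower in muscle. The acvr1aa2 call was also lost in 22 of 70 fits that left out 1 sample (adjusted p up to 0.0733), and its difference lay between 0.90 and 1.17 in all 70.

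**Figure D5:**
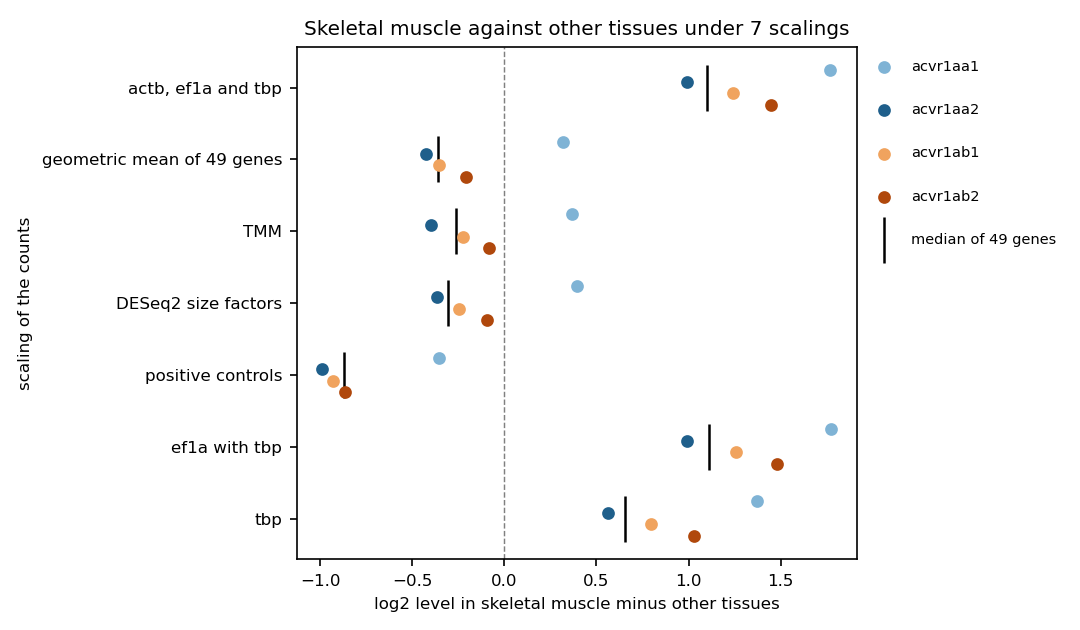
Log2 level in skeletal muscle minus other tissues of each acvr1a copy (points) and the median of the 49 pathway genes (bars) under 7 scalings of the counts. The copies move with the median, which is 1.10 with actb, ef1a and tbp and −0.36 with the pathway genes.

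Among the 7 muscles, acvr1ab2 was the only copy called as varying (F = 4.61, adjusted p = 0.00748). That is 1 of 4 copies, near the 20.4% of the pathway genes called. acvr1ab2 gave 229 and 144 counts in Caudal Skeletal Muscle, scaled to 1088 ± 41.7 (SD, n = 2), the highest of 23 tissues. Extraocular Muscle, which moves the eye, was the lowest muscle at 371 ± 207 (SD, n = 3), with 771, 216 and 338 counts. acvr1ab1 ran from 257 ± 75.7 in Caudal to 127 ± 38.8 in Adductor Skeletal Muscle (F = 1.89, adjusted p = 0.232). No muscle passed the test of the acvr1ab1 to acvr1ab2 ratio against the other tissues, so a difference between these 2 copies among muscles was not shown. acvr1aa2 had adjusted p = 0.960 among muscles and acvr1aa1 0.356. Under pathway scaling, TMM, DESeq2 size factors and the positive controls, no copy passed.

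Some tissue calls were lost without 1 sample, in part with the difference still over 2-fold. acvr1aa1 in Extraocular Muscle gave 58, 11 and 13 counts, and its log2 difference of 1.11 was 0.16 without replicate 1 (adjusted p = 0.921). Without 1 sample, acvr1aa1 lost its calls in Cardiac Stomach (replicate 1, adjusted p = 0.0716), Pelvic Fin (replicate 3, 0.234) and Spleen (replicate 2, 0.0699). The log2 differences were then −1.25, −0.73 and −1.15. acvr1aa2 lost its call in Hypaxial Skeletal Muscle (replicate 1, 0.0611), at a difference of 1.03. acvr1ab1 lost its call in Red Skeletal Muscle (replicate 2, 0.0874), at 0.70. Without 1 sample, acvr1ab2 stayed past the adjusted p but fell under a 2-fold difference in Red (0.70, replicate 2) and Pelvic Fin Skeletal Muscle (0.79, replicate 2), as in Pyloric Caeca. In Red its difference of 1.01 lies so near that threshold that leaving out single samples of other tissues also took it under, to 0.99 at the lowest, and the 1.01 of acvr1ab1 once.

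Other type I receptors on the panel gave a comparison. Of the 4 acvr1b genes, which encode the activin receptor ALK4, 0 were called higher in muscle, and of the 2 acvr1c genes both were. Their medians of the muscle difference were 0.35 and 2.34, against 1.34 for the acvr1a copies and 1.10 for all 49 genes. Of the 7 type II receptors 4 were higher in muscle, and of 10 receptor-regulated and common Smads 6. Of 2 inhibitory Smads 0 were higher, of 2 bambi decoy receptors 2 and of 17 ligand genes 8. None was lower. Over all 49 genes 55.1% were higher. These counts hold for scaling by the 3 reference genes. With pathway scaling, 4 of the 49 genes were higher and 10 lower. The median range of tissue means was 2.92 on the scale of log2(scaled count + 10) for the acvr1a copies, 3.33 for acvr1b, 5.05 for acvr1c and 3.33 for all 49 genes.

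The panel genes with the most similar profile were named by Pearson's r over 23 tissue means of log2(scaled count + 10). For acvr1ab1 they were acvr2ab1 (0.805), acvr2ab2 (0.781) and acvr2aa2 (0.776), all type II receptors, and for acvr1ab2 acvr2ab1 (0.795), acvr2ab2 (0.790) and the follistatin gene fsta (0.787). The least similar gene was the ligand gene gdf11b1 for both, at 0.096 and −0.019. For acvr1aa2 they were the inhibitory Smad smad7b2 (0.827), acvr2aa1 (0.778) and the common Smad smad4aa2 (0.761), and the least similar was acvr1ba1 (−0.246). For acvr1aa1 they were smad4aa1 (0.859), smad4aa2 (0.849) and acvr2ab1 (0.845), and the least similar was inhab1 (0.115). As acvr1aa1 exceeded the limit in 17 of 70 samples, its r values rest mostly on counts not above the limit. With pathway scaling the nearest gene was smad7b2 again for acvr1aa2 (0.532), but acvr1ba1 for acvr1ab1 (0.481), acvr1bb1 for acvr1ab2 (0.446) and acvr2ba1 for acvr1aa1 (0.391). The neighbouring gene acvr1ca1 had r = 0.755 with acvr1aa1, and acvr1ca2 had r = 0.606 with acvr1aa2.

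In the authors' deposited table of normalized signal, 1 value per gene and tissue, acvr1aa2 was highest in Retina (269) and Hypaxial Skeletal Muscle (254), and acvr1ab2 in Epaxial (1446) and Hypaxial Skeletal Muscle (1301). Set against the counts, most of that table's values match geometric means of reference-scaled counts times 4721, 4578 or 1926 in 3 sets of samples. Within 0.02 on the log2 scale, 78.7% of genes matched in Gill, 87.5% in Pyloric Caeca and 97.9% at most, and the Adductor value matches 3 of its 4 samples. Tissues of the third set, Caudal and Red Skeletal Muscle, Heart and Gill among them, stand lower in it. acvr1ab2 in Caudal Skeletal Muscle is 799 in the authors' deposited table. Within the first set, of 44 samples and 15 tissues, the log2 ratio difference was −3.04 in Pyloric Caeca (edgeR adjusted p = 9.07e-08), −2.32 in Testes (7.27e-06) and 1.47 in Liver (0.00241). Within the second, of 12 samples and 4 tissues, it was 2.08 in Retina (5.06e-06). These fits within sets were chosen after seeing the data.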

How the data were processed

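The deposited counts are raw NanoString barcode counts per probe, with no scaling or background subtraction visible in the values; the authors' processing of them is not given in the sources used. The authors' deposited table of normalized signal holds 1 value per gene and tissue and was used as a description only. Rainbow trout tissues were grouped by the labels, with the samples of a tissue as replicates. Total counts ran from 52194 to 269554, and no 2 samples agreed within sampling noise.

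Scaled counts were computed from actb, ef1a and tbp. Tests used edgeR 4.0.16 (quasi-likelihood, R 4.3.3) on the counts of 49 genes, with Benjamini-Hochberg adjustment over all genes and contrasts of a comparison. Every adjusted p in the text is from that fit unless another tool is named. Muscle was compared with other tissues over tissue totals. Copy ratios used the same model on duplicate pairs. limma 3.58.1, DESeq2 1.42.0, other scalings, background subtraction, a replicate block and left-out samples were alternatives. Fits within sets of samples were added after seeing the data. The scripts were tested on simulated data. Genes named are the 4 copies and, for each, the 3 most similar panel genes and the least similar. The members and lists were chosen with earlier results of these data known. Sequences are the authors' probe targets.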

Additional observations from a re-analysis of the deposited data

How the results depend on the processing

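The ratio of acvr1aa to acvr1ab in Retina, Liver, Pyloric Caeca and Testes passed the test under every alternative run, as did acvr1aa2 in Retina and acvr1ab2 in Pyloric Caeca, though without Pyloric Caeca 1 the last was under a 2-fold difference. Those 2 were the only ones of 39 tissue calls to do so, and 15 of the 39 changed sign under some scaling. The cause of the changes below was not tested. Low counts limit acvr1aa1, which was not tested under a minimum mean count of 20, and the number of samples per tissue limits all contrasts.

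Muscle minus other tissues, in the order acvr1aa1, acvr1aa2, acvr1ab1 and acvr1ab2, was 0.32, −0.42, −0.36 and −0.21 with pathway scaling, 0.37, −0.40, −0.23 and −0.083 with TMM, 0.39, −0.36, −0.25 and −0.10 with DESeq2 size factors, and −0.35, −0.99, −0.93 and −0.86 with the positive controls, none past the threshold. With tbp alone acvr1aa2, acvr1ab1 and acvr1ab2 were 0.56, 0.80 and 1.03. With background subtracted acvr1aa1 and acvr1aa2 were 1.15 and 0.78, and without the 8 low-detection samples acvr1aa2 was 0.96, also not past it. Over left-out samples the acvr1aa2 difference ran from 0.90 to 1.17.

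The 541 pairs of tissues called became 175 with pathway scaling, 227 with TMM, 231 with DESeq2 size factors, 132 with the positive controls and 349 with background subtracted. The 18 copy and tissue pairs called higher became 4 with pathway scaling, 7 with TMM, 6 with DESeq2 size factors and 7 with limma at pseudocount 50. The 21 called lower became 6, 6, 4 and 5 under the same settings, and 0 with the positive controls (edgeR). Copies varying among muscles numbered 1, but 3 with limma at pseudocount 50 and 0 with pathway scaling, TMM, DESeq2 size factors and the positive controls.

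Tissues with an altered acvr1aa1 to acvr1aa2 ratio numbered 5, but 1 with at least 100 counts of both copies, 3 without low-detection samples and 0 with background subtracted. The minimum of 100 left no sample of Pyloric Caeca (at most 94 counts) or Epaxial Skeletal Muscle (at most 88), so their calls were not tested under it. It left only replicate 3 of Liver (186 counts) and only replicate 1 of Distal Intestine (105), too few to judge those calls. For acvr1ab1 to acvr1ab2 they numbered 1, but 4 with limma at pseudocount 10, 0 without low-detection samples, 0 with background subtracted, and 0 to 1 over left-out samples. The F of that ratio was 1.29 (edgeR adjusted p = 0.285) with background subtracted.

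Signs changed as follows. With pathway scaling, Caudal acvr1ab1 was −0.025, Hypaxial acvr1aa2 −0.11 and acvr1ab1 −0.13, Pelvic Fin Skeletal Muscle acvr1ab2 −0.035, and Red acvr1ab1 −0.15 and acvr1ab2 −0.18. With TMM, Head Kidney acvr1ab1 was 0.0083, Pelvic Fin Skeletal Muscle acvr1ab2 −0.064, and Red acvr1ab1 −0.12 and acvr1ab2 −0.16. With DESeq2 size factors, Hypaxial acvr1aa2 was −0.016 and acvr1ab1 −0.025, Pelvic Fin Skeletal Muscle acvr1ab2 −0.19, and Red acvr1ab1 −0.28 and acvr1ab2 −0.32. With the positive controls, Adductor acvr1aa2 was −0.58, Caudal acvr1ab1 −0.71 and acvr1ab2 −0.13, Epaxial acvr1ab1 −0.50 and acvr1ab2 −0.28, Hypaxial acvr1aa2 −0.14 and acvr1ab1 −0.12, Pelvic Fin Skeletal Muscle acvr1ab2 −0.55, and Red acvr1ab1 and acvr1ab2 both −1.02. There Head Kidney acvr1aa2 was 0.30 and acvr1ab1 0.14, and Spleen acvr1aa1 0.51, acvr1ab1 0.32 and acvr1ab2 0.012. Within the set of samples that holds Retina, its acvr1ab1 was 0.024 and acvr1ab2 0.21.

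Replicate numbers gave no clear sign of pairing. Deviations of same-numbered samples of different tissues correlated with a median r of 0.025, against −0.013 for different-numbered samples. Of these sample pairs, 39.3% and 33.3% had r over 0.1. With 2 to 4 samples per tissue, these values cannot decide whether tissues came from the same fish. With a replicate block the F of acvr1aa over acvr1ab was 11.1, of the acvr1aa pair 3.89 and of the acvr1ab pair 3.37, with 524 pairs of tissues called, 17 copy and tissue pairs higher and 22 lower, and 7 tissues with an altered acvr1aa to acvr1ab ratio against 6.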
